A study of Homo sapiens with 32 samples.

Results

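A375 is an established cell line from a human melanoma, and its RNA was examined for N6-methyladenosine (m6A) in the fraction that stays with chromatin. The members described are 37657 shared loci: places where the peaks of the first control library and those of the second overlapped by at least 1 bp on the same strand. They are part of 53196 loci found in either control library and of 66409 loci found in any of the 4 deposited peak lists of the series. The series holds 32 samples in 16 groups, and only the 2 peak lists of cells with a control hairpin RNA (shControl, wild type per the labels) were used. For these libraries chromatin-associated RNA was depleted of ribosomal RNA, received a methylated spike-in RNA, was fragmented and was enriched with an m6A antibody. The sequencing libraries kept the strand of the RNA. The labels do not say whether the replicates came from separate cultures, so differences between the lists may be technical only. How deeply the libraries were sequenced is unknown.

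m6A is placed on RNA during transcription by a nuclear methyltransferase complex whose catalytic subunit is METTL3. The complex prefers the sequence GGAC, a common form of the DRACH consensus, where A is the methylated base. In mature mRNA the mark is known to collect near stop codons and in long exons, away from exon junctions. Chromatin-associated RNA is rich in nascent and unspliced transcripts, so peaks in introns and past gene ends can be seen there. Antibodies against m6A also bind m6Am, a related mark on the first transcribed base of capped RNA when that base is an adenosine.

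A peak here is a stretch of RNA with more antibody-enriched signal than its background. Its fold enrichment is the authors' own value at the summit, the highest point of the peak, and serves below to describe and rank peaks within a list. Each shared locus was assigned to a gene when its summit lay in the span of that RefSeq gene alone, introns included, on the strand of the gene where a strand was known. Peak numbers given for a gene count all peaks of each list placed in it by their own summits, shared or not. They can therefore differ from the peaks that make up its shared loci.

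Sequences can be shown for shared loci that cover a known microRNA hairpin, because the strand and the bases of these short stretches are in RefSeq (GRCh38.p14). Of 1562 hairpins, 61 (3.91%) were overlapped by a shared locus on their strand, 44 of these lay wholly inside it, and 13 held the summit itself. The motif GGAC, searched on the transcribed strand only, occurred in 21 of the 61 hairpins (34.4%, 95% Wilson interval 23.7 to 47.0) and in 427 of all 1562 (27.3%, 25.2 to 29.6). The 2 intervals overlap. The hairpins below lay wholly inside a shared locus of a single gene, held GGAC and had folds of at least 4 in both lists, a choice made after the values were seen. They are shown as examples of sequence inside a strong locus, 5′ to 3′, with GGAC in capitals. In all 6 the summit, where the fold was taken, lay outside the hairpin.
MIR1908: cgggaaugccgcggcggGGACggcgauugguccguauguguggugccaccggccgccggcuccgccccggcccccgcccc
MIR4315-1: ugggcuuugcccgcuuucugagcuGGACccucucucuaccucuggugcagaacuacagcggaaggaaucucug
MIR4453: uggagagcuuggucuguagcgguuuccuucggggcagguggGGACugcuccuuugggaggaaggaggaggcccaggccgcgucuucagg
MIR6743: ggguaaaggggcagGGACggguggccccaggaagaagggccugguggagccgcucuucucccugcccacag
MIR6868: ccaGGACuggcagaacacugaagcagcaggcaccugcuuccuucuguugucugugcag
MIR922: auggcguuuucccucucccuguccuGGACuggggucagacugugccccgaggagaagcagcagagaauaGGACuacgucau

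MIR1908 (chr11:61815161-61815240, minus strand) lies in FADS1, a fatty acid desaturase gene, and its 873 bp locus had folds of 7.77 and 6.67 in replicates 1 and 2. MIR4315-1 (chr17:45475363-45475435, minus strand) lies in PLEKHM1, with folds of 6.02 and 5.41. The suffix marks a hairpin with another copy, and reads of such copies can be hard to tell apart. MIR4453 (chr4:152536428-152536516, plus strand) lies in its host lncRNA MIR4453HG, with folds of 5.55 and 5.82. MIR6743 (chr11:209336-209406, plus strand) lies in RIC8A and had folds of 5.81 and 5.01. These 4 loci were 631 to 873 bp wide, so the hairpin filled only a small piece of each. MIR6868 (chr17:76098019-76098076, minus strand) lies in EXOC7, an exocyst subunit gene, under a 239 bp locus with folds of 4.91 and 4.55. MIR922 (chr3:197674496-197674576, minus strand) lies in RUBCN and holds 2 copies of GGAC under a locus with folds of 4.91 and 4.76. In all 6 cases the enrichment belongs to RNA of the host gene's strand. Fragments of the host transcript and of the hairpin cannot be told apart, and which adenosine carried the mark was not measured.

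The control lists held 45345 and 47692 peaks. Of these, 38940 peaks of replicate 1 (85.9%, 95% Wilson interval 85.6 to 86.2) and 38558 peaks of replicate 2 (80.8%, 80.5 to 81.2) lay in a shared locus. These intervals, and all others below, cover counting error only. The lists thus left 6405 and 9134 peaks in 1 list alone. Of the shared loci, 35742 (94.9%) joined exactly 1 peak of each list, and the other 1915 joined more than 1 peak of a list. In base pairs, the lists covered 17.1 and 18.2 Mb, and 14.7 of the 20.6 Mb covered by either were covered by both, a Jaccard index of 0.713. A shared locus had a median width of 325 bp (quartiles 217 and 534).

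Whether a peak was found again depended on its strength. Among the weakest 10% of peaks by fold, 75.1% of replicate 1 and 70.7% of replicate 2 were shared, against 98.2% and 98.7% among the strongest 10%. By the authors' q-value the range was wider. Peaks with a −log10 q under 10 were shared in 64.8% and 52.0% of cases. With a −log10 q of 100 or more, 3492 of 3518 peaks (99.3%) and 3924 of 3937 peaks (99.7%) were shared. Peaks of 1 list alone had median folds of 3.21 and 3.08 and median widths of 162 and 170 bp, against 3.99 and 3.84 and 279 and 291 bp for peaks in shared loci. A peak of the other list lay within 200 bp of 10.7% and 9.75% of the unshared peaks.

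**Figure D1:**
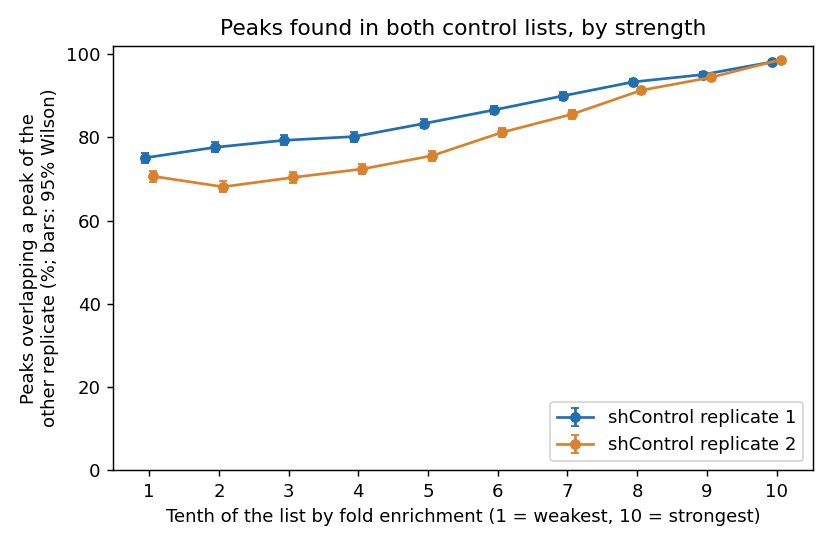
Share of peaks (%, vertical axis, with 95% Wilson intervals) of each shControl list that overlapped a peak of the other list, in 10 equal steps of fold enrichment (horizontal axis). The share was lowest in weak steps, 75.1% in the weakest for replicate 1 and 68.1% in the next to weakest for replicate 2, and reached 98.2% and 98.7% in the strongest.

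Most of the unshared peaks lay in genes that carried shared loci elsewhere. Of the unshared peaks placed in a single gene, 4834 of 5433 in replicate 1 (89.0%) and 6826 of 7631 in replicate 2 (89.5%) were in such genes. The lists were therefore closer by gene than by peak. Of the protein-coding genes, 8301 had a peak in replicate 1 and 8412 in replicate 2, and 7949 had one in both, which is 95.8% and 94.5% of the 2 sets. Among the 7949 genes with a peak in both lists, the number of peaks was equal in 45.5% and differed by at most 1 in 82.3%. Over these genes the 2 numbers had a Pearson correlation of 0.963 and a Spearman correlation of 0.904. Genes of both lists share span, RNA level and the peak caller's settings, so this is a description and not a test.

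At the 35742 loci with 1 peak in each list, the summits were a median of 6 bp apart. They were within 50 bp at 82.4% and within 100 bp at 90.5% of the loci. The folds had a Pearson correlation of 0.764 on the log2 scale and a Spearman correlation of 0.750 across loci, which are not independent replicates. The log2 ratio of the fold in replicate 2 to that in replicate 1 had a median of -0.06 (quartiles -0.26 and 0.15), and 57.6% of loci had the lower fold in replicate 2. The ratio stayed within 2-fold either way at 97.7% of loci. Folds of the same locus that differ by less than 2-fold lie within the spread between these 2 lists.

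**Figure D2:**
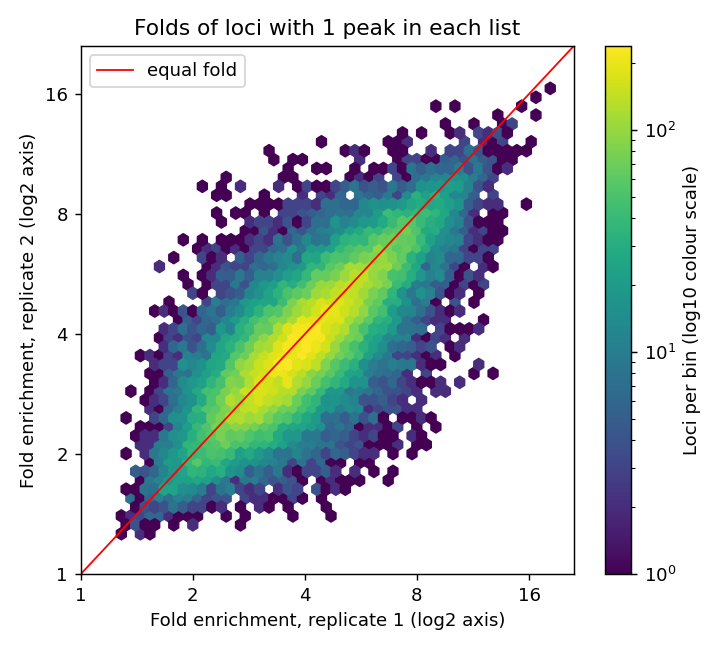
Fold enrichment in replicate 1 (horizontal, log2 axis) against replicate 2 (vertical, log2 axis) for the 35742 loci with 1 peak in each list, with colour for the number of loci per bin on a log10 scale and a red line for equal folds. The points follow the line with a Pearson correlation of 0.764, and 97.7% lie within 2-fold of it.

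Shared loci lay mainly inside single genes. Of the 37657, 31955 (84.9%) were assigned to 1 gene, 1728 (4.59%) fell in several overlapping genes, 920 (2.44%) lay in a gene but on its opposite strand only, and 3054 (8.11%, 7.84 to 8.39) lay outside every gene. The folds of these classes were alike in both lists, with medians of 3.99 and 3.85 for single genes, 4.08 and 3.96 for several genes, 3.96 and 3.83 for the opposite strand, and 4.04 and 3.91 outside genes. Peaks found in 1 list alone were placed much the same way, with 84.8% and 83.5% in single genes and 8.40% and 9.16% outside. Placement was possible with a known strand for 27302 genes, and the strand of 692 more was taken from their own loci. For the remaining 11775 genes loci of either strand were accepted. No gene of chromosome 8 had a strand in the tables.

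Protein-coding genes held most of the loci. At least 1 shared locus was assigned to 8765 of all 39769 genes (22%), to 7845 of 20052 protein-coding genes (39.1%, 38.4 to 39.8), to 735 of 18330 lncRNA genes (4.01%, 3.74 to 4.30) and to 178 of 1268 transcribed pseudogenes (14.0%, 12.2 to 16.1). These counts set the background for every list below. By locus, there were 29163 in protein-coding genes (77.4% of all shared loci), 2308 in lncRNA genes (6.13%) and 467 in transcribed pseudogenes (1.24%). None of 52 genes of the class ncRNA and 4 of 19 antisense RNA genes carried one. Where a gene of any of the 3 large classes carried loci, however, the median was 2 loci in each class. Per 10 kb of span, carrying genes had medians of 0.694 loci for protein-coding genes, 0.775 for lncRNAs and 0.708 for pseudogenes. Median folds were 4.0 and 3.85 in protein-coding genes, 3.91 and 3.86 in lncRNAs and 4.10 and 4.03 in pseudogenes. RNA level was not analysed here, so a gene without the mark and a gene with little RNA on chromatin cannot be told apart.

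The number of loci per protein-coding gene was skewed. Exactly 1 shared locus was found in 2352 genes (30.0% of carrying genes), 2 to 4 in 3477 genes (44.3%), 5 to 9 in 1467 (18.7%), 10 to 19 in 485 (6.18%) and 20 or more in 64 (0.816%). The 785 genes with most loci held 34.0% of the loci in protein-coding genes. The mean was 3.72 loci and the quartiles were 1 and 5.

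The genes with most loci were long, and several code for giant proteins of the cytoskeleton. MACF1, a linker of microtubules and actin, carried 75 shared loci along 403 kb of chromosome 1, with 83 and 82 peaks in replicates 1 and 2. DST, which codes for the related linker dystonin, carried 71 along 497 kb, with 74 and 79 peaks. The lists differed by at most 5 peaks for either gene. RNF213, a very large ubiquitin ligase gene, carried 44 loci (49 and 48 peaks), and TENM1, a teneurin gene, also carried 44 (53 and 57 peaks). ADARB2, a gene of the RNA-editing deaminase family, had 40 loci, with 54 and 52 peaks. NALF1, an auxiliary factor of a sodium leak channel, had 36 loci, with 42 and 43 peaks. MYH9, the heavy chain of non-muscle myosin, had 33 loci, with 36 and 37 peaks. CEP350, a centrosomal protein gene, DYNC1H1, the heavy chain of cytoplasmic dynein, and MYO18A, an unconventional myosin gene, had 32 loci each. Their peak numbers were 36 and 33, 37 and 37, and 37 and 34.

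These genes reached similar totals in different ways. DYNC1H1 and RNF213 had 3.48 and 3.19 loci per 10 kb, while TENM1 and NALF1, with spans of 828 and 704 kb, had 0.53 and 0.51. The loci of 1 gene also varied in strength. In CEP350 they ran from 2.60 to 15.3 in replicate 1 and from 2.49 to 11.5 in replicate 2, whereas in DYNC1H1 they ran from 1.57 to 5.12 and from 1.53 to 3.94.

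Across all protein-coding genes, the share with a shared locus was higher in longer genes up to 200 kb. It was 15.7% of 3211 genes under 5 kb, 46.4% of 4749 genes of 20 to 50 kb, 54.3% of 1957 genes of 100 to 200 kb and 49.8% of 315 genes over 500 kb. The median number per carrying gene went from 1 under 5 kb to 5 over 500 kb. The number per 10 kb went the other way, from a median of 5.09 to 0.0737. Both medians are over carrying genes, so a gene under 5 kb cannot have fewer than 2 loci per 10 kb, and part of this fall with span is set by that choice. Over the 7845 carrying genes, span had a Spearman correlation of 0.325 with the number of loci and of -0.776 with the number per 10 kb, which contains the span itself. No peak of either list lay in 130 of the 315 genes over 500 kb (41.3%), against 10285 of all 20052 protein-coding genes (51.3%). The 5 longest genes without a peak were RBFOX1 (2.47 Mb), a splicing factor gene, CNTNAP2 (2.30 Mb), a cell adhesion gene of neurons, DMD (2.22 Mb), the dystrophin gene, CSMD1 (2.06 Mb) and EYS (1.99 Mb), a photoreceptor gene.

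**Figure D3:**
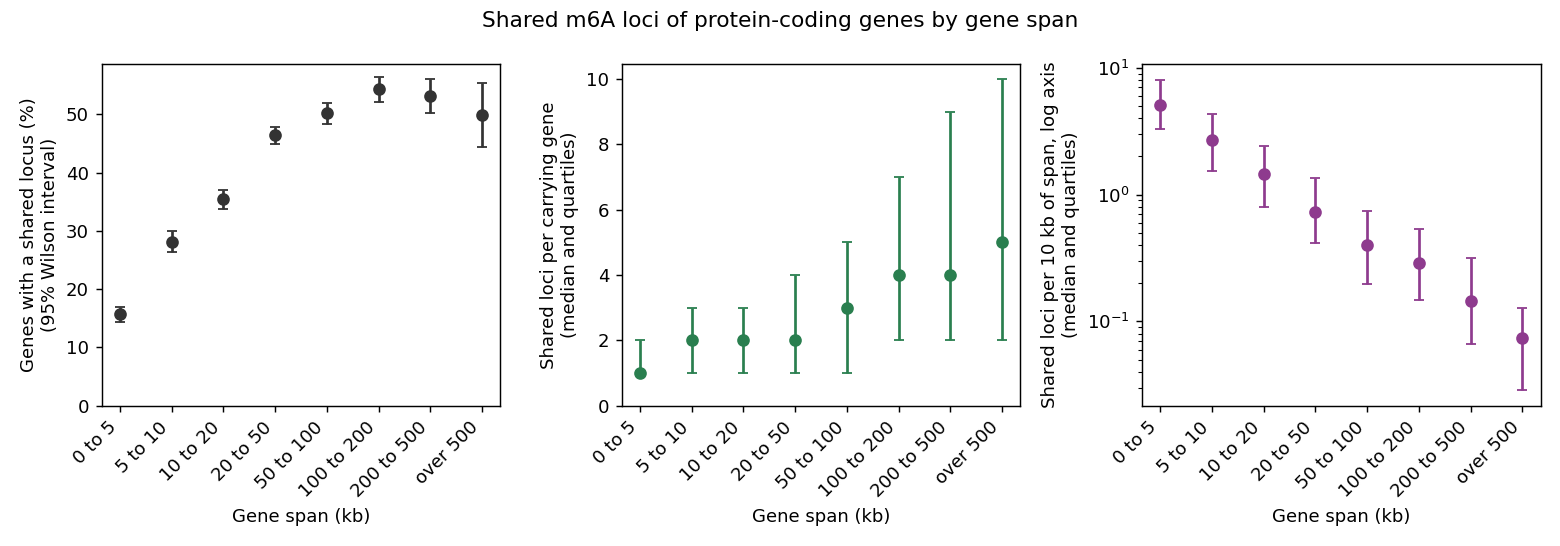
Protein-coding genes by span in kb (horizontal axes): the share with a shared locus (%, with 95% Wilson intervals), the number of shared loci per carrying gene, and their number per 10 kb of span on a log axis (medians with quartiles). The share ran from 15.7% under 5 kb to 54.3% at 100 to 200 kb, while the median per 10 kb ran from 5.09 down to 0.0737.

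The densest genes were short. Among 3807 protein-coding genes of at least 2 kb and 3 loci, the median was 0.96 loci per 10 kb. TPI1, the glycolytic enzyme triosephosphate isomerase, had 5 loci in 3.53 kb, or 1.42 per kb, from 5 peaks in each list. GADD45B, a stress-response regulator, had 3 loci in 2.13 kb from 3 peaks in each list, or 1.41 per kb. DRAP1, a transcriptional corepressor, had 3 in 2.14 kb, with 4 and 3 peaks. The folds set these apart, since the loci of TPI1 reached at most 4.25 and 3.56 in replicates 1 and 2, and those of GADD45B reached 12.45 and 12.8. WDR24 and ZCCHC3 had no strand in the tables, so RNA of either strand was counted in them. WDR24 had 10 loci in 5.78 kb, 6 on the plus and 4 on the minus strand. Placed by their own summits, 9 and 12 peaks of the lists lay in it. ZCCHC3 had 4 loci (5 and 4 peaks), 3 on the plus and 1 on the minus strand.

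The 8 genes with the strongest locus, ranked by the lower of its 2 fold percentiles in the lists, carried from 2 to 12 shared loci each. The locus of SLC25A53, a mitochondrial carrier gene, had the highest fold of either list, 18.2 and 16.5, in a gene with 2 loci (2 peaks in each list). TAF3, which codes for a component of TFIID, had a locus of 17.0 and 15.7, and ARHGAP18, a regulator of small GTPases, one of 16.7 and 14.6. CCAR1 (15.0 and 15.2), the transcription factor gene BBX (14.6 and 13.7), AKAP17A (14.5 and 13.4), ZNF883 (13.6 and 13.6) and EME2 (13.5 and 12.8), a structure-specific endonuclease subunit, were the others of the 8. Each of these 8 loci lay among the strongest 1% of peaks in both lists. Their widths ran from 216 bp in AKAP17A to 2238 bp in EME2. Other loci of these genes were weaker by far, for instance 3.46 and 3.26 at the other locus of SLC25A53.

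Of the shared loci, 1198 (3.18%) were at least 1500 bp wide. The widest, 13460 bp on the minus strand (chr22:10716903-10730362), lay outside genes on the short arm of chromosome 22, with folds of 7.38 and 11.0 from 1 and 2 peaks. Next came 9219 bp (chr11:62524964-62534182) and 8389 bp (chr11:62516467-62524855) in AHNAK, a giant scaffold protein gene. Their folds were low, at 2.63 and 1.77 for the first and 2.07 and 1.85 for the second. Both lay on the minus strand, that of AHNAK. Across from the first, on the plus strand, lay a 6090 bp locus (chr11:62527176-62533265) with higher folds of 3.17 and 2.58. The fourth was 6832 bp in MKI67 (chr10:128102652-128109483), which codes for the proliferation marker Ki-67, with folds of 4.09 and 3.64. AHNAK, MKI67 and APC are genes with an unusually long coding exon. The APC locus, 6776 bp wide (chr5:112837523-112844298) with folds of 6.71 and 6.46, came next and was added after its value was seen. Exons were not analysed here, so whether these loci fill those exons was not measured.

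Within genes the loci were concentrated at both ends. Windows were set in 6164 carrying protein-coding genes of at least 5 kb with a strand in the tables, none of them on chromosome 8. These genes held 23912 loci. The last 2000 bp held 2692 loci (11.3%) in 2.25% of the length, or 2.18 loci per 10 kb. The first 500 bp held 1103 (4.61%) in 0.563% of the length, or 3.58 per 10 kb. The interior held the large majority, 20117 loci (84.1%) in 97.2% of the length, or 0.378 per 10 kb. Of these genes, 34.2% had a locus in the end window, 17.6% in the start window and 89.4% in the interior. Folds differed little between start, end and interior, with medians of 3.92 and 3.87, 4.08 and 3.92, and 3.99 and 3.84. Loci of the end window were wider, with a median of 399 bp.

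The share in the end window was lower in longer genes, of which a fixed window is a smaller part. It was 26.6% in genes of 5 to 20 kb, 11.9% at 20 to 100 kb and 3.75% over 100 kb. By relative position, the last 5% of the span held 12.3% of the loci and the first 5% held 8.79%, while the lowest share was 3.27% between 20% and 25% of the span. Transcript parts (UTR, coding sequence, stop codon, intron) were not analysed here.

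**Figure D4:**
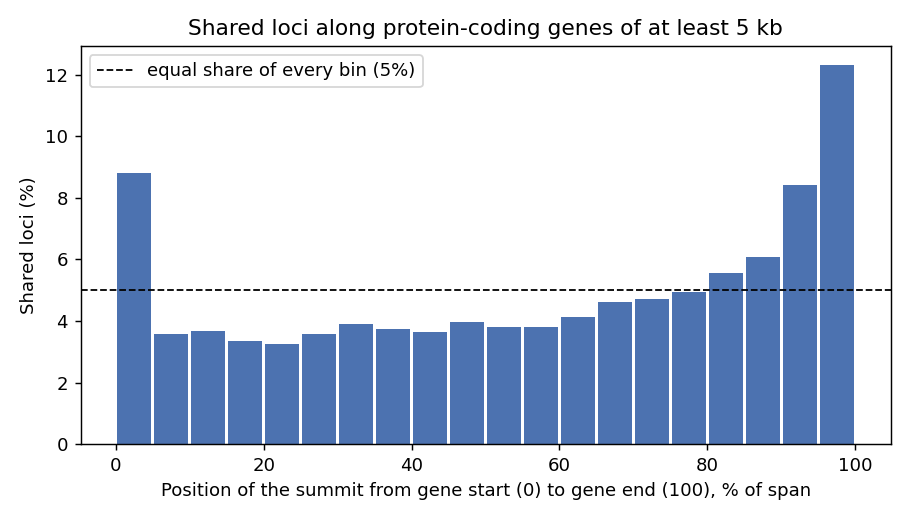
Share of the 23912 shared loci (%, vertical axis) in each 5% step of the span of protein-coding genes of at least 5 kb, from gene start to gene end (horizontal axis), with a dashed line at an equal share for every step. The first step (8.79%) and the last (12.3%) are the highest, and the steps between them are lowest near 20% to 25% of the span (3.27%).

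Gene starts were looked at once more with the bases themselves, since the first base bears on m6Am. The first 50 transcribed bases of 13818 protein-coding genes were in the RefSeq promoter table. A shared locus lay over this window in 933. The first base was A in 530 of these (56.8%, 53.6 to 60.0), in 2154 of 4856 genes with shared loci elsewhere only (44.4%, 43.0 to 45.8) and in 4355 of 8029 genes without one (54.2%, 53.1 to 55.3). A was thus the first base least often in genes whose loci lay elsewhere, and the other 2 classes had overlapping intervals. GGAC on the transcribed strand occurred in 21.0%, 18.7% and 20.2% of the windows of these 3 classes. The starts shown next were picked only from genes whose first base is A and whose start locus was assigned to the gene itself. They are the 4 of these with the strongest start locus, by the lower of its fold percentiles in the lists. The first 30 bases of the transcript are given 5′ to 3′ from RefSeq (GRCh38.p14), with the first base and any GGAC in capitals. The annotated start need not be the one used in A375 cells.
GADD45B: AgatcgccgaagcgtcGGACtaccgttggt
NRP2: Agagatcgcgagcgaggcaccagcctgcag
OGFR: Agcgcgagccccgccgccgccgagcatgga
NEK2: Aaacggggcccaaggcaggggtggcgggtc

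GADD45B (chr19:2476127-2476156, plus strand) had folds of 12.45 and 12.8 at a 490 bp locus over its start. NRP2 (chr2:205682501-205682530, plus strand), a neuropilin receptor gene, had 10.4 and 10.2 at a locus of 854 bp. OGFR (chr20:62804835-62804864, plus strand), the opioid growth factor receptor gene, had 10.3 and 9.43 at 319 bp. NEK2 (chr1:211675592-211675621, minus strand), a mitotic kinase gene, had 10.2 and 9.53 at 202 bp. All 4 begin with A because only such genes were eligible, and GGAC is in the shown bases of GADD45B only. The loci of GADD45B and OGFR covered the first base, while those of NRP2 and NEK2 covered only later bases of the window. The antibody signal of m6A and m6Am cannot be told apart in these lists.

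lncRNA genes with many loci were long and mostly little characterised. LINC02476 carried 40 shared loci (43 and 48 peaks), EPIC1 30 (37 and 40), SLC38A4-AS1 27 (30 and 32), ZFPM2-AS1 27 (30 and 30), MIR4527HG 22 (27 and 31) and CCDST 21 (24 and 26). Their spans ran from 177 kb for CCDST to 309 kb for MIR4527HG. Folds were moderate in LINC02476, at most 5.52 and 4.75, and highest in CCDST in replicate 2, where a 3380 bp locus had 6.53 in replicate 1 and 14.7 in replicate 2. That pair differed by more than 2-fold, while 97.7% of the loci with 1 peak in each list stayed within 2-fold. Whether the CCDST locus is among these is not shown here. A transcribed pseudogene carried at most 19 loci, and those with most loci after LOC symbols were left out were PDE4DIPP2 with 13 (17 and 15 peaks), DDX12P with 12 (14 and 14), DUXAP9 with 12 (13 and 14) and CCDC144BP with 11 (11 and 12). Pseudogenes share sequence with their parent genes, so reads placed in them are uncertain.

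Of 17 noncoding RNA genes listed as nuclear or long-lived, 8 (47.1%, against 4.01% of all lncRNA genes) carried a shared locus assigned to them alone. Place in the cell and lifetime were not measured here, and members may lack either trait. TERC and RMRP, also on the list, are not of the lncRNA class and carried none. The count leaves out loci that also lie in another gene, of which KCNQ1OT1, an imprinted antisense RNA, had 20, MALAT1 6 and CYTOR 2. FTX, a lncRNA of the X inactivation centre, carried 10 (12 and 15 peaks) and PVT1 9 (12 and 9 peaks). TUG1, a nuclear lncRNA, carried 4 loci within 10.1 kb (5 and 6 peaks), with folds from 4.29 to 7.88 and from 5.99 to 10.1. The loci of 2 nuclear-body lncRNAs had low folds. NEAT1, the scaffold of paraspeckles, had 3 loci in its span (5 and 3 peaks), with loci of either strand accepted. Those on the plus strand had folds of 1.58 to 1.64 in replicate 1 and 1.40 to 1.41 in replicate 2. The locus on the minus strand had 2.64 and 1.66. Because the loci lie on both strands, they cannot all be RNA of NEAT1. MALAT1, a lncRNA of nuclear speckles, overlaps the antisense gene TALAM1 in the table, so its loci were counted apart. Their folds of 1.39 to 1.53 and 1.28 to 1.31 lay below those of nearly all other peaks, at no more than the 0.232 and 0.021 percentile of the 2 lists. A fold is relative to the background at its own place. No peak in either list lay in DANCR or MEG3.

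Small nucleolar RNA host genes, whose spliced exons are short-lived, carried loci assigned to them alone in 4 of 29 cases (13.8%), against 4.01% of all lncRNA genes. SNHG29 and SNHG20, not among these, had 2 and 1 that also lie in another gene. SNHG14 had 5 (8 and 6 peaks), SNHG16 had 1 (1 and 2 peaks) and SNHG30 had 1 (1 peak in each list). No peak lay in SNHG1 or SNHG10.

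The shares of protein-coding gene lists are given against the background of 39.1% carrying genes, with a median of 2 loci per carrying gene and a median span of 24.1 kb over all protein-coding genes. They were not tested, and the lists differ from that background in span and, unmeasured here, in RNA level. Loci that also lie in another gene are left out of these shares.

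The genes of the m6A machinery themselves nearly all carried loci. All 8 genes of the writer complex had a shared locus, with a median of 2.5. ZC3H13, a scaffold subunit, carried 14 (16 and 14 peaks), with folds of up to 14.2 and 11.6. VIRMA, the largest subunit, carried 10 (11 and 12 peaks). METTL3 carried 4 (5 peaks in each list) along 13.2 kb of chromosome 14, minus strand. From low to high coordinate their folds were 3.75 and 2.69 at the first, 3.58 and 2.91 at the next, 3.16 and 3.09 at the third, and 5.21 and 3.99 at the last. Replicate 2 was lower at all 4. Of 13 readers and erasers, 12 carried loci, with 11 in IGF2BP3 (12 and 11 peaks), 9 in IGF2BP2 (11 in each list) and 9 in YTHDC1, the nuclear reader (9 and 10). FMR1 had no peak in either list.

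Of the lists described here, chromatin modifiers had the highest median number of loci. Of 44 histone and chromatin modifiers 42 carried loci, 417 in all, with a median of 8.5 per carrying gene. These genes are long, with a median span of 98.9 kb against 24.1 kb over all protein-coding genes. Per 10 kb of span the median of carrying members was 0.879 loci, against 0.694 for all carrying protein-coding genes. The chromatin remodellers CHD2, CHD7 and CHD4 carried 28 (29 in each list), 25 (26 and 29) and 18 (20 and 21). The deacetylase genes HDAC4 and HDAC5 had no peak. Of 30 centromere and kinetochore genes 21 carried loci (70.0%), with a median of 6. CENPE, the kinetochore kinesin, had 21 (24 in each list), CENPF had 20 (20 in each list) and INCENP, of the chromosomal passenger complex, had 12 (13 and 14). CENPA, the centromeric histone H3 variant named in the series title, and CENPH had no peak in either list. Of 27 DNA damage response genes 23 carried loci, with 16 each in RAD50 (20 and 18 peaks) and TP53BP1 (18 and 16) and 11 in XRCC6 (11 and 12). Of 26 SR protein and hnRNP genes, which act in splicing, 24 carried loci with a median of 2. The largest numbers were 11 in SRRM1 (12 and 11 peaks), 10 in SRRM2 (12 and 15) and 8 in HNRNPR (9 and 8), and SRSF3 had no peak.

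Zinc finger genes with ZNF symbols are a large family of DNA-binding repressors that often have a long last exon. Of 509 such genes, 347 (68.2%, 64.0 to 72.1) carried 949 loci, with a median of 2. ZNF462 carried 13 (20 and 15 peaks), ZNF638 carried 13 (13 and 16) and ZNF142 carried 10 (11 in each list), while ZNF114 and ZNF132 had no peak. Their members resemble each other in sequence, which can make read placement uncertain. Families of short genes gave lower shares than these, as did short protein-coding genes in general. Of all protein-coding genes, 15.7% carried loci under 5 kb of span and 28.1% at 5 to 10 kb. Of 84 cytosolic ribosomal protein genes, with a median span of 5.05 kb, 29 carried loci (34.5%). That is near the background of all spans and above the shares of genes under 10 kb. Their median was 1, with 3 in RPL14 (3 and 4 peaks), RPL29 (3 in each list) and RPL3 (4 and 3). RPL10L and RPL12 had no peak. Of 72 histone genes matched by symbol, with a median span of 0.4955 kb, 14 carried loci (19.4%). That is below the background of all spans but not below the share of genes under 5 kb. H1-3 had 2 (2 in each list) within 0.776 kb, and H2BC18 had 2 (2 in each list). H1-1 and H1-6 had no peak.

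Regulators with short-lived mRNAs carried loci in short spans. Of 22 immediate-early and other short-lived regulators 19 did (86.4%), with a median of 5.43 per 10 kb of span. Their median span was 4.50 kb, and all carrying protein-coding genes under 5 kb had a median of 5.09. The transcription factor genes ATF3, FOSL2 and KLF6 had 5 loci each, with 5 and 6 peaks. SOCS1 and SOCS2, inhibitors of cytokine signalling, had none. Of 18 genes of the MAPK pathway and its feedback, which is active in melanoma, 15 carried loci assigned to them alone. DUSP6, not among these, had 5 that also lie in another gene. NF1, the Ras inactivator, had 12 (14 and 16 peaks), CCND1, cyclin D1, had 6 (6 in each list) and DUSP4, a MAPK phosphatase, had 5 (5 in each list).

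The melanocyte markers of the labelled line were mostly without loci. Of 17 melanocyte lineage genes MITF, PAX3 and MC1R carried shared loci assigned to them alone, with 4 (5 and 8 peaks), 4 (4 in each list) and 2 (2 in each list). RAB27A had 1 that also lies in another gene. No peak in either list lay in 11 of the 17, among them the pigment genes PMEL, MLANA, TYR, TYRP1 and DCT, the lineage factor SOX10, and ERBB3. Of 17 genes of the dedifferentiated melanoma state 14 carried loci assigned to them alone (82.4%). CCN2 and NGFR, not among these, had 3 and 1 that also lie in another gene. The matrix gene TNC carried 29 (29 in each list), with folds of up to 11.3 and 11.5, the receptor gene EGFR carried 12 (18 in each list) and the integrin gene ITGA3 12 (17 and 13), while WNT5A had no peak. Markers of other cell types were rare. No keratinocyte gene of 10 carried a locus (upper Wilson bound 27.8%), TWIST1 was the only one of 10 fibroblast genes and CD68 the only one of 10 leukocyte genes, each with 1 locus from 1 peak in each list. A missing peak is not a missing transcript, so these counts are not a measure of cell type.

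**Figure D5:**
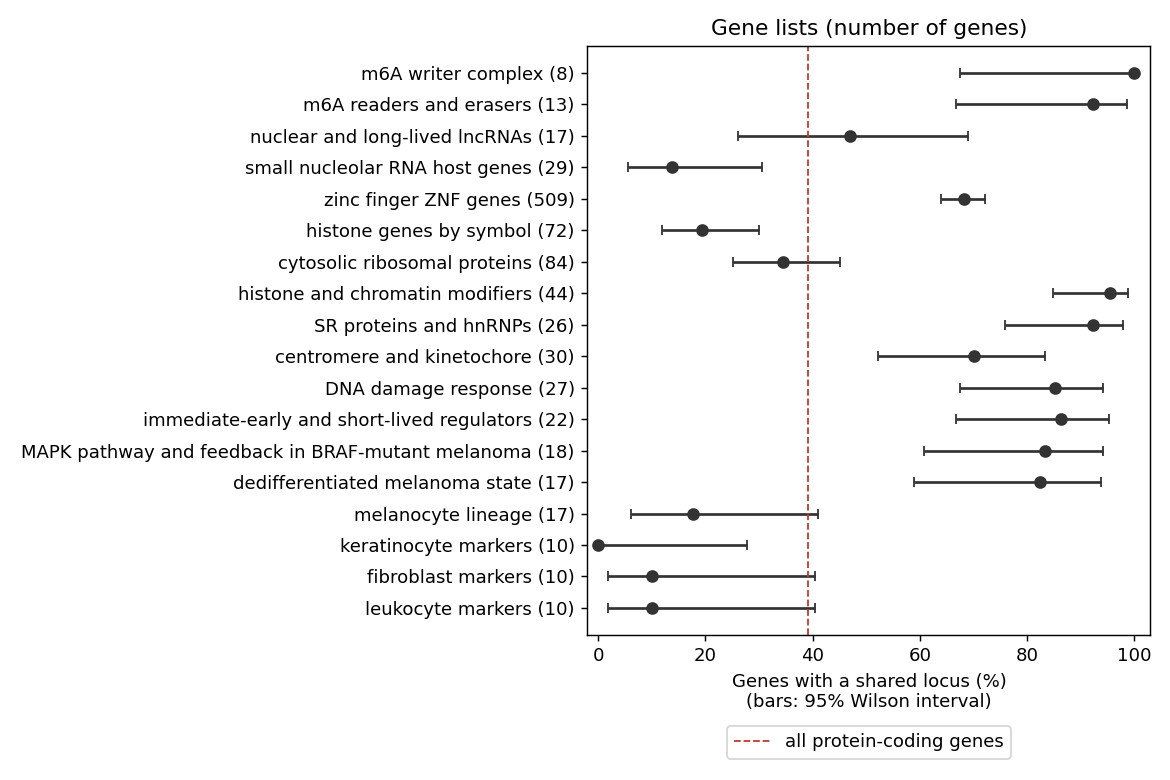
Share of the genes of each list with a shared locus (%, horizontal axis, points with 95% Wilson intervals, number of genes in brackets). The dashed line is the share of all protein-coding genes of any span, and is not matched to the spans of a list. Writers (100%), chromatin modifiers (95.5%), and both the readers and erasers and the SR proteins and hnRNPs (92.3%) are farthest above the line at 39.1%, and histone genes (19.4%), melanocyte genes (17.6%) and keratinocyte genes (0%) are below it. The line does not apply to the list named nuclear and long-lived lncRNAs or to small nucleolar RNA host genes. These are set against the 4.01% of all lncRNA genes.

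Of the 3054 loci outside genes, 1069 (35.0%) were within 10 kb of a gene and 716 (23.4%) were more than 100 kb from any. The most common place near a gene was downstream on its own strand, with 389 loci. Upstream on the opposite strand, where divergent transcripts start, had 164, upstream on the same strand 144 and downstream on the opposite strand 95. For 277 the near gene had no strand. Downstream loci were thus the largest of these classes with a strand. Median folds outside genes hardly changed with distance, at 4.04 and 3.91 within 10 kb and 3.99 and 3.95 beyond 100 kb. Annotated pseudogenes without listed transcription overlapped 164 of the loci, whose folds were somewhat higher at 4.47 and 4.53.

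Loci outside genes came in stretches. Joining those at most 10 kb apart gave 1487 stretches, of which 831 (55.9%) held 1 locus and 126 held at least 5, with 843 loci in these. Of the 5 stretches described next, 4 lay on 1 strand only. The last of them was 1 of 4 stretches with 12 loci, of which 1, on chromosome 8, was mixed (4 plus, 8 minus). On chromosome 22, 13 loci (12 plus, 1 minus) lay within 31.0 kb (chr22:34483180-34514145; 15 and 14 peaks), with folds of 1.90 to 5.71 and 1.82 to 5.64. On chromosome 11, 13 loci of the minus strand lay within 29.3 kb (chr11:38915762-38945091; 14 peaks in each list), with folds of up to 6.75 and 9.13. Both stretches were more than 10 kb from a gene, the first by 121 kb and the second by 29.2 kb. On chromosome 4, 13 plus-strand loci lay within 27.5 kb (chr4:23518106-23545627; 15 in each list), with folds of up to 6.64 and 10.9. On chromosome 13, 13 plus-strand loci lay within 24.4 kb (chr13:69345929-69370378; 17 and 13 peaks), 24.0 kb from LINC00383. On chromosome 3, 12 plus-strand loci lay within 48.8 kb (chr3:145363777-145412566; 14 and 16 peaks), 144 kb from the nearest gene. Each of these 5 stretches had at least 13 peaks in both lists.

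The opposite-strand loci were of 2 kinds. Of the 920, 354 (38.5%) lay directly across from a shared locus on the other strand. So did 511 of the 31955 loci in single genes (1.60%). Lying across is mutual, so a pair can count in both classes. The 2 shares therefore depend on the class sizes, and neither is a background for the other. AHNAK had 13 opposite-strand loci, of which 11 lay across from a shared locus on the other strand. In SPTBN1, a spectrin gene with 32 loci of its own, 6 of 8 did. Others had nothing across from them. VRK2 had 9 opposite-strand loci and HSD17B3 had 7, with no locus of their own strand in either gene. What gave rise to either kind was not tested.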

How the data were processed

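Chromatin-associated RNA enriched for m6A was sequenced, and 1 peak list per library was deposited. MACS2 2.2.7.1 is the peak caller among the tools in the submitters' processing notes, which also list SAMtools, the aligners HISAT2 2.1.0 and Bowtie2 2.4.2, and Trim Galore 0.6.6, with hg38 as the build. Settings, and any use of input libraries or of the spike-in in peak calling, are not given in the sources used here. Per the peak names in the deposited lists, strands were called separately. The fold enrichment is the ratio the authors' peak caller gave at the summit. The authors deposited p-values and q-values as −log10 values, with a lowest −log10 q of 2.00, and a score that was not used. Peaks below that limit are not in the lists.

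From these files, peaks of the 2 control lists were merged on a strand at 1 bp of overlap, and a locus took the summit of its strongest peak. Gene spans came from RefSeq (GRCh38.p14, the build of hg38) and strands from the RefSeq promoter table, or from the loci where at least 80% of at least 3 lay on 1 strand. Where both sources existed, they gave the same strand for 3110 of 3151 genes. Pandas 2.3.3, NumPy 2.4.6 and SciPy 1.17.1 were used, and the steps were tested on simulated peaks. With 1 group of 2 libraries no test between groups was made, and shares have 95% Wilson intervals.

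The members and gene lists were chosen with earlier results of these data known. Genes were named by rule: the 10 protein-coding genes with most loci, the 8 densest, the 8 with the strongest locus, 6 lncRNAs, 4 pseudogenes, 5 stretches, the 4 widest loci, the 5 longest genes without a peak, and in each list the 3 members with most loci and up to 2 without a peak. LOC, C-orf and FAM symbols were left out of the rankings. Some genes the rule names are not reported here. Genes named outside this rule (APC, the microRNA hairpins, the gene starts, NEAT1, MALAT1, further melanocyte genes and the genes with opposite-strand loci) were chosen after their values were seen. Alternatives were a stricter overlap, fold and q filters, lists cut to equal length, each list alone, and other ways of placing loci. Exons, repeats and the sequence under peaks were not used here.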

Additional observations from a re-analysis of the deposited data

How the results depend on the processing

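Counts depended most on a fold filter. With peaks of at least 4-fold only, 14089 shared loci and 5724 genes remained, the median per carrying gene was 1, the median per 10 kb 0.385, the Jaccard index 0.605, the share in protein-coding genes 77.2% and the share outside genes 8.32%. With a −log10 q of at least 20, 25248 shared loci and 7325 genes remained, against 37657 and 8765 in the report's setting. The other values were 0.566 per 10 kb, a Jaccard index of 0.707, 90.6% inside genes, 79.2% in protein-coding genes and 7.39% outside. A 50% reciprocal overlap left 34910 shared loci and 8518 genes. It gave 0.664 per 10 kb, 89.6% inside genes against 89.4% in the report's setting, 77.7% in protein-coding genes and 7.91% outside. Lists of equal length gave 0.682 per 10 kb and a Jaccard index of 0.713. Ignoring strand gave 91.9% inside genes, 74.9% in protein-coding genes and 0.672 per 10 kb, and counting a locus in each of several genes gave 81.7% and 0.725. Placing loci by any overlap gave 89.7% inside genes and 7.90% outside. Each list used alone, without the other replicate, gave 45345 to 47692 loci, 9290 to 9458 genes, 89.1% to 89.2% inside genes, 77.0% to 77.3% in protein-coding genes, a median of 3 loci in both, 0.809 to 0.816 per 10 kb and 8.32% to 8.37% outside. The depth is unknown, so what it adds to unshared peaks was not tested. No paired analysis was possible because the values describe 1 group and come from no test.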

Other observations

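A few of the strongest peaks were found in 1 list alone. Of the strongest 10% by fold, 83 of 4540 peaks in replicate 1 and 62 of 4770 in replicate 2 had no overlap in the other list. These were narrow: 76 of the 83 and 55 of the 62 were under 200 bp wide, with a median of 160 bp in both lists, against 522 and 527.5 bp for the shared peaks of the same strength. The strongest in replicate 1 lay in SNRNP27 (fold 10.9, 161 bp), CARS1 (10.3, 156 bp) and COL4A1 (9.72, 159 bp), and those placed in genes in replicate 2 lay in CNOT10 (9.01, 165 bp) and ATRX (7.93, 151 bp). The narrowest peaks of either list are 150 bp wide.

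Chromosomes differed in how their genes and gaps carried loci. The share of protein-coding genes with a shared locus was highest on chromosome 13 (46.4%) and chromosome 3 (45.4%) and lowest on X (28.3%) and chromosome 21 (29.3%). Carrying genes had most loci per 10 kb on chromosome 19 (median 1.17) and chromosome 17 (1.07), and fewest on chromosome 18 (0.382) and chromosome 4 (0.395). Their median spans were 20137 and 26127 bp on chromosomes 19 and 17, against 74967 and 74513 bp on chromosomes 18 and 4. The share of loci outside genes was highest on chromosome 13 (22.0%) and X (15.1%), and lowest on chromosome 10 (3.21%) and chromosome 20 (3.28%).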
